A study of Rattus norvegicus with 6 samples.

Results

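Glutathione S-transferases (GSTs) were followed in renal cortex from male rats given phenolphthalein or its vehicle. The members were taken by name as the main rat enzymes of this superfamily: Gsta1, Gsta3 and Gsta4 (alpha class), Gstm1 and Gstm2 (mu), Gstp1 (pi), Gstt1 and Gstt2 (theta), Gstk1 (kappa, mitochondrial) and Mgst1 (microsomal). They are 10 of the 15278 genes named on the array, and all 10 were among the 12263 named genes that were tested. Together they carried 16 probes of the 43473 tested, and each of the 16 was well above background on all 6 arrays.

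GSTs join the tripeptide glutathione to reactive, electrophilic molecules, which makes them more soluble and readies them for export and breakdown. The proximal tubule of the kidney cortex is rich in alpha-class enzymes and in the brush-border peptidases that turn glutathione conjugates into mercapturic acids. Many GST genes are known as targets of the stress-responsive factor Nrf2 and of nuclear receptors that respond to foreign compounds, so the family is often read as a gauge of chemical exposure.

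The rats were Sprague-Dawley (Crl:CD(SD)), an outbred stock, bought at an age of 5 weeks and kept on a basal diet. The 3 vehicle rats received corn oil and the other 3 received 1000 mg/kg/day of phenolphthalein, a former laxative drug, both for 4 weeks. Total RNA of each rat was labelled with Cy3 and hybridised to 1 Agilent array, and the series' design text calls the samples biological replicates. The question is which GSTs, if any, differed in level after 4 weeks of phenolphthalein.

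All values are log2 intensities relative to the 75th percentile of the same array, so a difference of 1 is a doubling, and differences are phenolphthalein minus vehicle. Levels of members are compared between rats for one probe at a time; for marker lists, the linear levels of the probes were summed within each rat. Probes well above background made up 64.8% to 72.1% of each array and 0 probes were saturated. The tissue label was checked against its markers, and 14 of 14 proximal tubule genes were tested. Their summed level lay between 2824 and 2852 times the array's 75th percentile in vehicle rats and between 2795 and 2884 in treated rats. Their median difference was -0.00. The sum follows the most abundant genes, such as Miox and Fbp1, and says little about the weaker ones. Across the 6 rats, single genes spanned from 0.11 (Slc22a6) to 1.49 (Slc7a13) and 1.96 (Slc22a7) log2 units. By their slide barcodes, the vehicle arrays were on a single slide and treated rats 2 and 3 on another. The slide of treated rat 1 held no other array of this series, so slide and treatment cannot be told apart. In whole cortex, fewer cells of a type and less RNA per cell cannot be told apart either.

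No GST member passed the test in either direction. With limma and Benjamini-Hochberg adjustment over all 43473 probes, 0 of 10 members were called higher and 0 lower at an adjusted p of 0.05, where the share of all probes called was 0% higher and 0% lower; the smallest adjusted p of any probe on the array was 0.221. At an unadjusted p of 0.05, 0 of 10 members were called in either direction, beside 3.91% of all probes higher and 4.91% lower. The 3 vehicle values lay entirely above the 3 phenolphthalein values for 1 member, Gsta3, and entirely below them for 0, beside 8.98% and 6.64% of all tested probes. That count is close to the background share and is read as no result about the family. The shares here and below count probes, named or not, whereas members and lists count 1 probe per gene. With 1 probe for each of the 12263 named genes, 502 were higher and 737 lower at an unadjusted limma p of 0.05. By the same count, 771 were higher and 1244 lower without overlap. The differences of the 10 members ran from -0.40 (Gstm1) to 0.30 (Gstm2), 3 with a value above 0 and 7 below, with a median of -0.08 beside -0.01 for all tested probes. Over all 16 probes, 5 had a higher and 11 a lower value, 1 had an unadjusted p under 0.05 and 2 did not overlap between the groups, and these were Gsta3 probes with lower values.

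**Figure D1:**
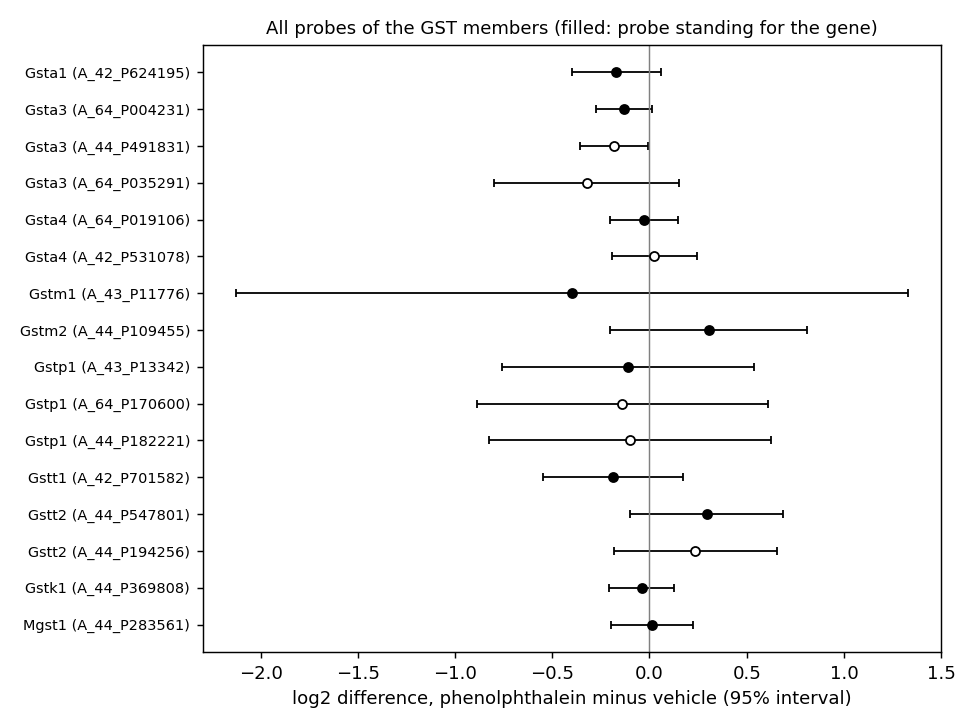
Difference in log2 intensity, phenolphthalein minus vehicle (horizontal axis), for all 16 probes of the 10 GST members (vertical axis), with the 95% confidence interval from limma, n = 3 rats per group; filled points are the probes that stand for a gene, open points are further probes. The interval of every filled point includes 0, that of the second Gsta3 probe ends just below 0, and that of Gstm1 runs from -2.13 to 1.33.

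The intervals set how large a difference these 6 rats could still hide. For Gsta1, Gsta3, Gsta4, Gstk1 and Mgst1 both bounds lay between -0.40 and 0.22, so a change of 1 log2 unit in either direction is outside each interval. The intervals of Gstm2, Gstp1, Gstt1 and Gstt2 were wider, with bounds between -0.76 and 0.81, and also leave out a change of 1. For Gstm1 the interval, -2.13 to 1.33, holds a doubling as well as a fall by more than 2 log2 units. The account below goes class by class.

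Alpha-class enzymes are the dominant GSTs of the rat proximal tubule and also act as peroxidases and ligand-binding proteins. Gsta1 (probe A_42_P624195) read 7.81, 7.64 and 7.70 in vehicle rats 1, 2 and 3 and 7.33, 7.67 and 7.64 in phenolphthalein rats 1, 2 and 3. Phenolphthalein rat 1 stood below all others and the remaining values of the groups overlapped. The means were 7.72 ± 0.08 and 7.55 ± 0.19 (SD, n = 3 each), which gives a difference of -0.17 (SE 0.10, limma adjusted p = 0.653).

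Gsta3, an alpha enzyme of the same gene cluster, had the smallest unadjusted p among the members. Its representative probe (A_64_P004231) read 6.41, 6.31 and 6.29 with vehicle and 6.10, 6.27 and 6.23 with phenolphthalein. The groups did not overlap, but the lowest vehicle rat (6.29) and the highest treated rat (6.27) were close. The means were 6.34 ± 0.06 and 6.20 ± 0.09 (SD, n = 3 each), which gives a difference of -0.13 (SE 0.06, 95% interval -0.28 to 0.01), with a limma unadjusted p of 0.0648 and an adjusted p of 0.595. A second Gsta3 probe (A_44_P491831) read 5.81, 5.67 and 5.73 against 5.41, 5.64 and 5.61, a difference of -0.18 (SE 0.07), with limma's unadjusted p at 0.0445 and its adjusted p at 0.557. The last probe (A_64_P035291) gave 2.00, 1.37 and 1.49 against 1.14, 1.12 and 1.63, with overlapping groups, a difference of -0.32 and a limma adjusted p of 0.682. All 3 probes thus had lower means with phenolphthalein and none passed the adjusted threshold; on the first and second of them, as for Gsta1, phenolphthalein rat 1 was the lowest of the 6.

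Gsta4 prefers 4-hydroxynonenal, an aldehyde made by lipid peroxidation. Its representative probe (A_64_P019106) gave 6.80, 6.90 and 6.66 with vehicle and 6.85, 6.71 and 6.72 with phenolphthalein, a difference of -0.03 (SE 0.07, 95% interval -0.20 to 0.15, limma adjusted p = 0.932). The groups overlapped, and a second probe (A_42_P531078) differed by 0.03 in the other direction. The symbols of this class need care: in RefSeq's current rat annotation, the gene now called Gsta1 carries Gsta3 and Gsta5 among its older names, and the gene now called Gsta3 carries Gsta5. Alpha-class paralogs are also close in sequence, and the probe sequences were not used here, so how far a probe reads a paralog cannot be told from these values.

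**Figure D2:**
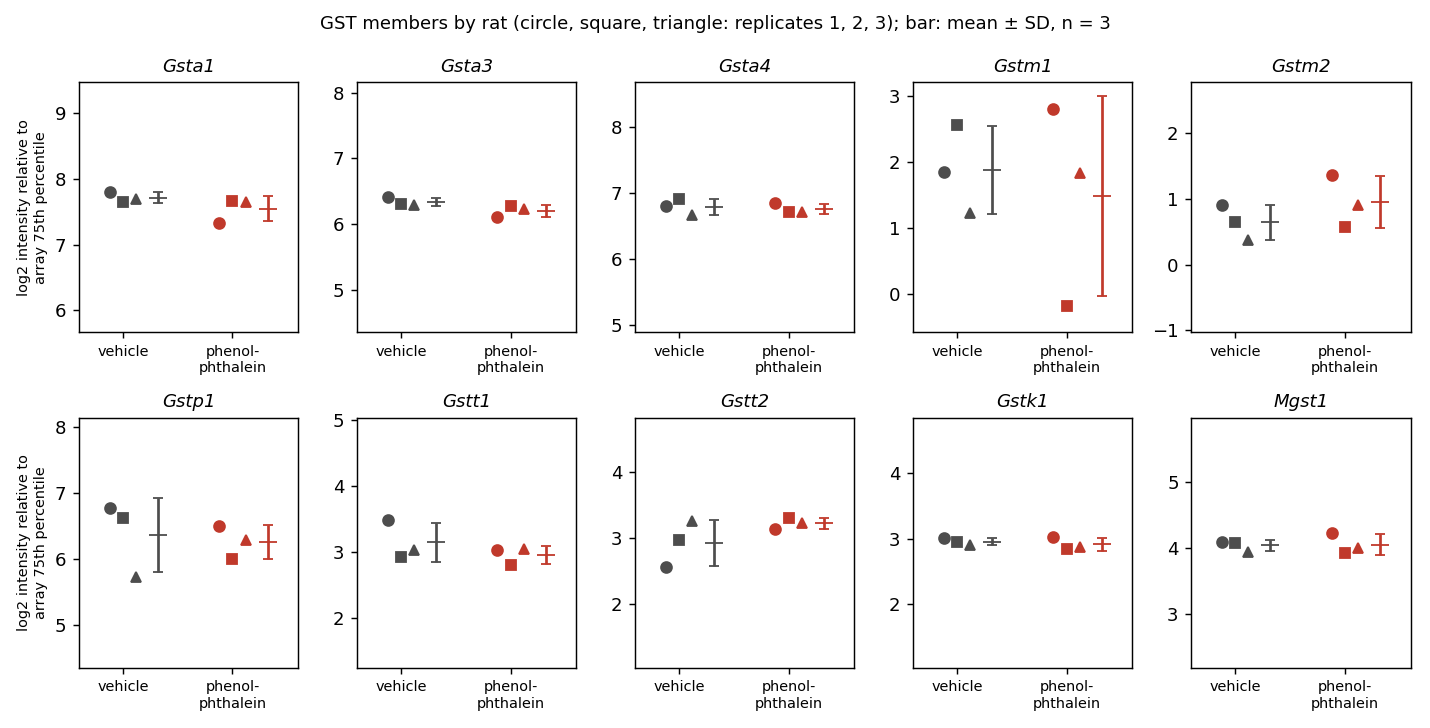
Level of each GST member in every rat: log2 intensity relative to the array's 75th percentile (vertical axis, the same span in every panel) for 3 vehicle and 3 phenolphthalein rats, with the mean ± SD beside each group. Gstm1 runs from -0.18 to 2.81, Gstp1 from 5.73 to 6.77 and Gstm2 from 0.38 to 1.36 across the 6 rats, and the 2 groups overlap in every panel but that of Gsta3.

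Mu-class enzymes conjugate epoxides and other bulky electrophiles, and their genes sit side by side on chromosome 2 of the rat. Gstm1 (probe A_43_P11776) was the member with the widest spread. It read 1.85, 2.57 and 1.23 in the vehicle rats and 2.81, -0.18 and 1.83 in the treated rats. Both the highest and the lowest value belonged to treated rats, rat 1 and rat 2, and the distance between them was 2.99 log2 units, or 7.93-fold. The means were 1.88 ± 0.67 and 1.48 ± 1.52 (SD, n = 3 each), which gives a difference of -0.40 (SE 0.73, limma adjusted p = 0.896). Without phenolphthalein rat 2 the difference turned to 0.43, so its sign rests on that rat.

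Gstm2 (probe A_44_P109455), the neighbour of Gstm1, read 0.91, 0.65 and 0.38 with vehicle and 1.36, 0.58 and 0.90 with phenolphthalein. Its lowest rat was vehicle rat 3, and the groups overlapped. The means were 0.64 ± 0.26 and 0.95 ± 0.39 (SD, n = 3 each), which gives a difference of 0.30 (SE 0.21, 95% interval -0.20 to 0.81, limma adjusted p = 0.715).

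The low Gstm1 value in phenolphthalein rat 2 recurred in other mu-class genes, a pattern noticed after the values were seen and given here as a description. Gstm7 read 0.14, 0.66 and 0.23 with vehicle and 0.84, -1.14 and 0.60 with phenolphthalein. Gstm4 read 0.47, 0.87 and 0.40 against 0.82, -0.48 and 0.83, and its second probe was also lowest in phenolphthalein rat 2, at -0.53. In each of the 3 genes that rat stood below the other 5, by 2.03 (Gstm1), 1.74 (Gstm7) and 1.30 (Gstm4) log2 units from their median. Gstm3 was also lowest there, but its representative probe was not well above background in that rat and its other probe was not lowest there; Gstm6l lay 0.90 below the median of the other 5. Gstm5, at the far end of the cluster, was 0.05 above that median, and Gstm2 was 0.32 below it.

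Of the 7 tested Gstm genes of the cluster, 5 had their lowest value in phenolphthalein rat 2, which is 71.4%. The same held for 17.0% of all 12263 named genes and for 6 of the 14 tested genes among the 10 on either side of the cluster. Among those flanking genes the median distance of this rat from the median of the other 5 was -0.15. The nearest genes beyond Gstm4, Ampd2 and Gnat2, were at -0.50 and -0.80, and the next, Gnai3, was at -0.00. The values of one rat come from one array, so these counts are not independent of each other. The probe sequences were not used for the mu class either. How far a mu-class probe reads a paralog therefore cannot be told, and the genes counted may share signal. The gene order is that of the GRCr8 assembly.

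**Figure D3:**
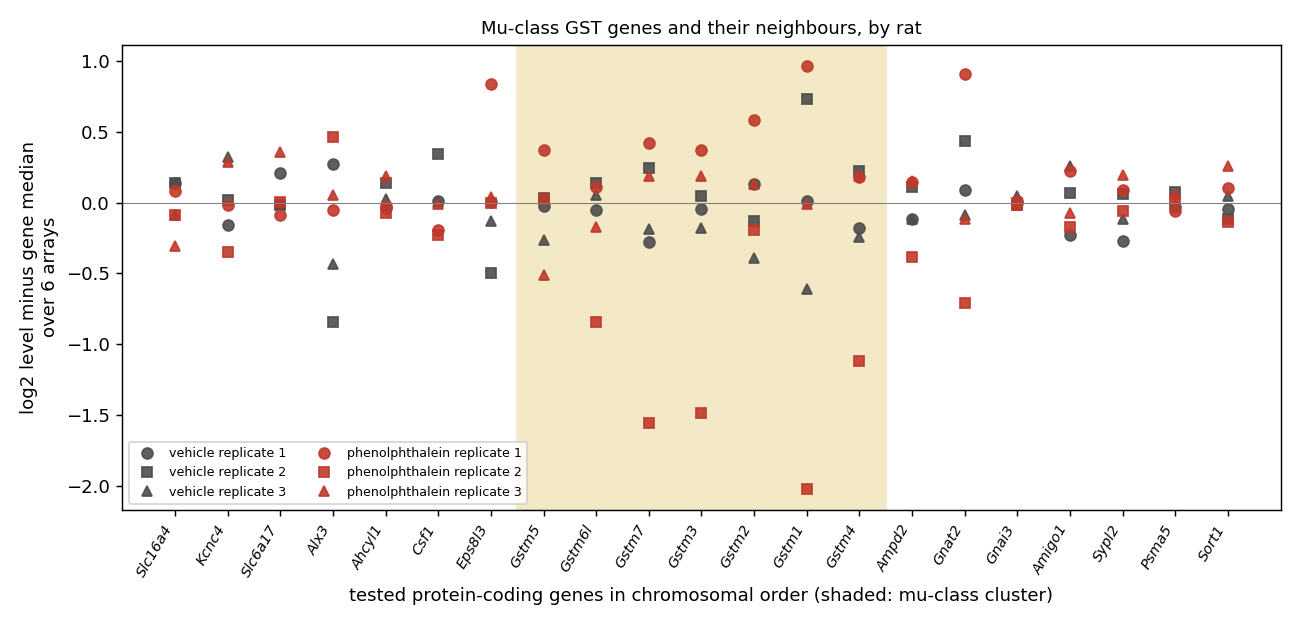
Log2 intensity of each rat minus the gene's median over the 6 arrays (vertical axis) for the tested genes of the mu-class cluster (shaded) and the tested genes among the 10 on either side, in GRCr8 order (horizontal axis); grey marks are vehicle rats, red marks phenolphthalein rats, and circle, square and triangle are replicates 1, 2 and 3. The red square, phenolphthalein replicate 2, is the lowest mark in 5 of the 7 shaded genes and lies farthest down for Gstm1.

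Because the mu genes did not vary alike across the rats, the 250 bases before the start sites of Gstm1, Gstm2, Gstm4 and Gstm7 are shown, so that the genes low in phenolphthalein rat 2 (Gstm1, Gstm4, Gstm7) can be set beside Gstm2. The sequences are RefSeq's on the GRCr8 assembly, minus strand, written 5′ to 3′, at chr2:198343384-198343633, chr2:198316918-198317167, chr2:198373384-198373633 and chr2:198260320-198260569 in that order. Capitals mark matches on either strand to TATAAA (the TATA box), GGGCGG (the GC box), CCAAT (the box of that name), TGACNNNGC (core of the antioxidant response element, the Nrf2 site) or GCGTG (core of the xenobiotic response element, the aryl hydrocarbon receptor site); none of these matches overlapped another.
Gstm1: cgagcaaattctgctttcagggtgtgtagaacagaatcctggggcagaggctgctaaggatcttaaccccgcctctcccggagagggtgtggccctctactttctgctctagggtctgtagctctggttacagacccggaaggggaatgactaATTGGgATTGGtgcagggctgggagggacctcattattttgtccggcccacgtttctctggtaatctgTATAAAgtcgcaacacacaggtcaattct
Gstm2: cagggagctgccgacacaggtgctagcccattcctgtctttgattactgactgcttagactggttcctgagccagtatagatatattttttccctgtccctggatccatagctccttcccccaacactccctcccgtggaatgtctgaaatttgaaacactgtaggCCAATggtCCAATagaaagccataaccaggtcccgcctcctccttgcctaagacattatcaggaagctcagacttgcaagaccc
Gstm4: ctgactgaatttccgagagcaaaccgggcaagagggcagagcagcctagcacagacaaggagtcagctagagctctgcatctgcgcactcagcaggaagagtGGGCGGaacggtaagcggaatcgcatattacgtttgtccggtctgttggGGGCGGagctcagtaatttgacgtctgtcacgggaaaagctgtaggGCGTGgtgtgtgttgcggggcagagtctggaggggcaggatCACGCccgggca
Gstm7: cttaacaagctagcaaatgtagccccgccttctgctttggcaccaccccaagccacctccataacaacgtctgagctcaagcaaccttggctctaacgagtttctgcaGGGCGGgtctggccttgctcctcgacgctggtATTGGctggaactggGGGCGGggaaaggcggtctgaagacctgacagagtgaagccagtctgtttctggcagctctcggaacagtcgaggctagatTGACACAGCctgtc

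The Gstm1 window held a TATAAA match 29 bases before the start and 2 CCAAT matches on the opposite strand. The Gstm2 window held 2 CCAAT matches only. Gstm4 and Gstm7 each had 2 GGGCGG matches, Gstm4 also had 2 GCGTG matches, and Gstm7 had TGACACAGC 14 bases before the start. Identity between these windows over the columns of a global alignment was between 41.5% (Gstm2 with Gstm4) and 49.4% (Gstm1 with Gstm7), and it was 48.1% for Gstm1 with Gstm2. The 28 pairs of these windows with those of members outside the mu class spanned 40.6% to 50.6%, so by this measure the mu windows did not stand above windows of other classes. A match describes the letters of the window and not a bound site. Across 33469 RefSeq windows of the same length, 12.9% held TATAAA, 30.5% GGGCGG, 34.0% CCAAT, 10.1% TGACNNNGC and 25.9% GCGTG.

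Gstp1, the pi-class enzyme, marks early liver tumours in rats and is a classical Nrf2 target. Its representative probe (A_43_P13342) read 6.77, 6.62 and 5.73 with vehicle and 6.51, 6.0 and 6.28 with phenolphthalein, a span of 1.04 log2 units or 2.06-fold. The groups overlapped, since the highest and the lowest rats were both vehicle rats. The means were 6.37 ± 0.56 and 6.26 ± 0.26 (SD, n = 3 each), which gives a difference of -0.11 (SE 0.27, 95% interval -0.76 to 0.54, limma adjusted p = 0.928). Probe A_64_P170600 gave 4.95, 4.59 and 3.73 against 4.65, 3.96 and 4.24, and probe A_44_P182221 gave 4.65, 4.35 and 3.46 against 4.39, 3.78 and 3.99. On each of the 3 probes vehicle rat 3 was the lowest and phenolphthalein rat 2 the next, so the spread between rats was seen by separate probes of the gene. Its sign turned without phenolphthalein rat 2, vehicle rat 1 or vehicle rat 2, to values of 0.02, 0.09 and 0.01, and the difference was -0.43 without vehicle rat 3.

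The window before the Gstp1 start site is shown for its match to the antioxidant response element core, at chr1:210769706-210769955 (GRCr8, minus strand, RefSeq), with the same use of capitals.
Gstp1: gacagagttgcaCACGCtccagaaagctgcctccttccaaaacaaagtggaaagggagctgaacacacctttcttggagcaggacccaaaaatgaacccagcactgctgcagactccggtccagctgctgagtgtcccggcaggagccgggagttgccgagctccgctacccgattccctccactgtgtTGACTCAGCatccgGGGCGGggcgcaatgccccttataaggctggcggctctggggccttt
The match, TGACTCAGC, begins 61 bases before the start and a GGGCGG match begins 47 bases before it. Of the 8 members with a window in the RefSeq table, 2 held TGACNNNGC (Gstp1 and Gsta3, whose match is TGACTTCGC), 4 held GGGCGG, 5 held CCAAT, 3 held GCGTG and 2 held TATAAA. Neither Gstp1 nor Gsta3 passed the test.

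Theta-class enzymes act on small halogenated compounds and sulfate esters. Gstt1 (probe A_42_P701582) read 3.48, 2.92 and 3.03 with vehicle and 3.04, 2.80 and 3.04 with phenolphthalein, a difference of -0.19 (SE 0.15, 95% interval -0.55 to 0.17, limma adjusted p = 0.749). Vehicle rat 1 was the highest and the rest overlapped. Gstt2 (probe A_44_P547801) read 2.56, 2.97 and 3.26 against 3.13, 3.30 and 3.24, a difference of 0.29 (SE 0.17, 95% interval -0.10 to 0.69, limma adjusted p = 0.651). Here vehicle rat 1 was the lowest, and the 3 treated rats lay within the top of the vehicle range and just above it. The second Gstt2 probe (A_44_P194256) read 1.05, 1.32 and 1.76 against 1.46, 1.66 and 1.73, again with vehicle rat 1 lowest, and differed by 0.24 (limma adjusted p = 0.728).

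Gstk1, found in mitochondria and peroxisomes, and Mgst1, a membrane enzyme that also reduces lipid hydroperoxides, were among the steadier members. Gstk1 (probe A_44_P369808) read 3.01, 2.95 and 2.90 with vehicle and 3.03, 2.84 and 2.87 with phenolphthalein, a difference of -0.04 (SE 0.07, 95% interval -0.21 to 0.13, limma adjusted p = 0.890). Mgst1 (probe A_44_P283561) read 4.09, 4.07 and 3.94 against 4.22, 3.93 and 4.0, a difference of 0.01 (SE 0.09, 95% interval -0.20 to 0.22, limma adjusted p = 0.977). For both, the highest and the lowest rat were treated rats 1 and 2, and the groups overlapped.

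The members differed widely in their spread between rats of a group. The pooled SD within groups of Gstm1 was 1.18 log2 units, a size reached by only 0.987% of all tested probes, and 10.4% of probes had an SD at least as large as that of Gstp1. For Gstm2 that share was 17.5%, for Gstt2 26.4% and for Gstt1 30.1%. The alpha, kappa and microsomal members were ordinary or steady by the same measure: 52.1% of probes had an SD at least as large as that of Gsta1, 60.2% for Mgst1, 69.2% for Gsta4, 79.1% for Gstk1 and 82.2% for Gsta3. The median SD of all tested probes was 0.152.

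**Figure D4:**
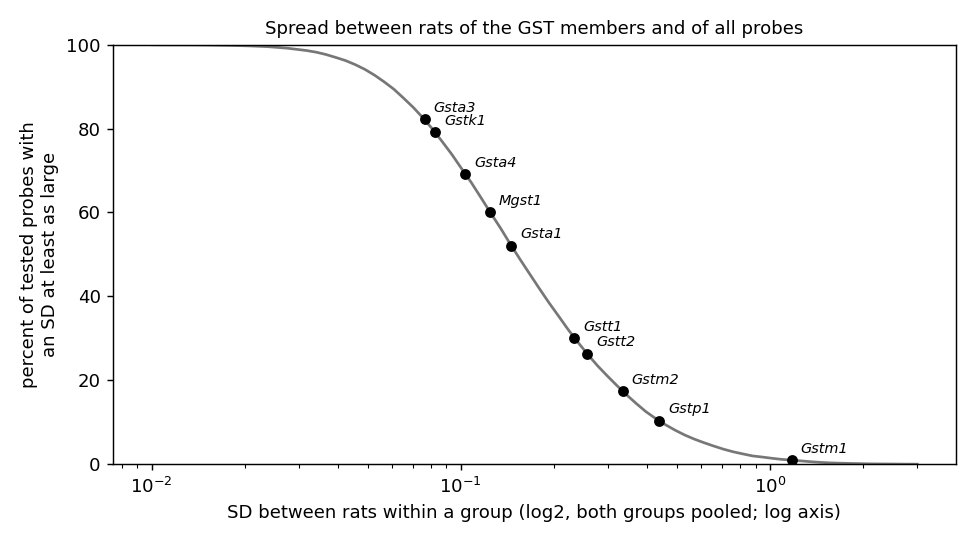
Share of all 43473 tested probes, in percent, whose pooled within-group SD is at least the value on the horizontal axis (log2 units, log axis), with the 10 GST members marked on the curve. Gstm1 lies at 0.987%, Gstp1 at 10.4% and Gsta3 at 82.2%.

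Of 23 other genes of the GST and membrane-enzyme families, 19 were on the array and 16 were tested. Gstm6, Gstt4 and Hpgds were well above background on fewer than 3 arrays, and Gsta7, Gstp2, Gstt3 and Gstcd were not matched to a probe. By value 7 were higher and 9 lower, 0 passed the adjusted threshold in limma, and their median difference was -0.10 with a range from -0.51 to 0.71. The upper end was Mgst2, a microsomal enzyme that can also make leukotriene C4. It read -4.71, -4.86 and -4.46 with vehicle and -4.02, -4.02 and -3.85 with phenolphthalein, without overlap. Its difference was 0.71 (SE 0.17), with a limma unadjusted p of 0.00378 and an adjusted p of 0.420.

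Mgst3, another microsomal enzyme, had a difference of -0.12 (SE 0.04) without overlap, with an unadjusted p of 0.0308 and an adjusted p of 0.530 in limma. Its other probes differed by -0.09, also without overlap, and by 0.05 in the opposite direction with overlapping groups, so the direction was not shared by all 3 probes. By representative probe, Mgst2 and Mgst3 were the 2 of 16 with an unadjusted p under 0.05, 1 in each direction, beside 3.91% of all probes higher and 4.91% lower. The cytosolic enzymes Gsta2, Gsta5, Gsta6, Gstz1, Gsto1 and Gsto2 had differences of -0.14, -0.08, 0.15, 0.08, 0.09 and 0.16. Gstp3 differed by -0.40, Gstm3 by -0.25, Gstm4 by -0.19, Gstm5 by 0.05 and Gstm7 by -0.24. Among the eicosanoid enzymes of the membrane family, Ptges (prostaglandin E synthase) differed by -0.14, Ltc4s (leukotriene C4 synthase) by -0.51 and Alox5ap (5-lipoxygenase activating protein) by 0.19. Ltc4s was also lowest in phenolphthalein rat 2, at -4.77 beside -3.75 to -3.09 in the others, whereas Gsta6 was highest in that rat, at 3.56 beside 2.93 to 3.08.

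The genes that supply glutathione showed no call either. Of 17 tested genes for its synthesis and for cysteine supply, 9 had higher and 8 lower values, 0 passed the adjusted test, and the median difference was 0.00. Gclc, the catalytic subunit of the rate-limiting enzyme, read 7.60, 7.43 and 7.30 with vehicle and 8.02, 7.33 and 6.98 with phenolphthalein, so that treated rats held both extremes. Its regulatory partner Gclm read -5.0, -4.13 and -4.01 against -2.28, -4.42 and -5.31, a spread of 3.03 log2 units with phenolphthalein rat 1 far above the rest. Gss, which completes the tripeptide, was also highest in phenolphthalein rat 1, at 4.61 beside 3.69 to 4.15. The differences between groups were 0.00 (Gclc), 0.37 (Gclm) and -0.01 (Gss), and those of glutathione reductase (Gsr) and the cystine carrier Slc7a11 were 0.12 and -0.15. With an unadjusted p under 0.05 the list held 0 higher and 2 lower genes, Cbs (-0.15) and Oplah (-0.16), chosen for naming after their values were seen, beside 3.91% of all probes higher and 4.91% lower.

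Of 14 tested genes that break down or acetylate conjugates, 8 had higher and 6 lower values, the median difference was 0.02, and 0 had an unadjusted p under 0.05. Ggt1, the brush-border enzyme that removes the glutamate, differed by 0.02, the dipeptidase Dpep1 by 0.01, the aminopeptidase Anpep by 0.36, the N-acetyltransferase Nat8 by 0.05 and the deacetylase Acy3 by 0.07. Ggt1 and Acy3 were highest in phenolphthalein rat 1, at 6.48 and 8.33, as Gclc, Gclm and Gss were. Of the proximal tubule markers, Slc7a13 (7.61 beside 6.12 to 6.94), Slc22a7 (0.94 beside -1.02 to -0.28) and Slc5a12 were also highest in that rat. Slc22a8, Slc5a2, Slc34a1 and Fbp1 were lowest there. That array shared its slide with no other array of this series. Neither the part of the slide nor that of the mix of tubule cells in these values was tested.

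Of 9 tested conjugate transporters, 6 had higher and 3 lower values, with a median difference of 0.04 and 0 calls after adjustment. Abcc2, the apical export pump, differed by -0.07. Abcc1, a basolateral pump singled out after its values were seen, read 0.80, 0.69 and 0.64 with vehicle and 1.05, 1.00 and 1.04 with phenolphthalein. Its groups did not overlap, and the difference was 0.32 (SE 0.07) with an unadjusted p of 0.00226 and an adjusted p of 0.412 in limma. It was the 1 transporter of 9 with an unadjusted p under 0.05, beside 3.91% of all probes higher.

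Of 15 tested regulators of GST genes, 11 had higher and 4 lower values, the median difference was 0.08, and 0 passed the adjusted test. Nfe2l2, which encodes Nrf2, differed by 0.05, its repressor Keap1 by -0.07 and the pregnane X receptor gene Nr1i2 by 0.11. Nr1i3, which encodes the constitutive androstane receptor, read -4.96, -5.08 and -5.18 with vehicle and -4.73, -4.18 and -4.25 with phenolphthalein. The groups did not overlap, and the difference was 0.69 (SE 0.21, limma unadjusted p = 0.0126, adjusted p = 0.487). Mafk, a partner of Nrf2 named after its values were seen, differed by 0.31 (limma unadjusted p = 0.00925, adjusted p = 0.461) and was the other regulator below an unadjusted p of 0.05. That makes 2 of 15 higher and 0 lower, beside 3.91% and 4.91% of all probes.

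For Gsta3, the member with the smallest unadjusted p, the genes with the most similar pattern over the 6 arrays were Cfap300, Chchd10, Tmbim6, Ascc1 and Stard3. Their Pearson correlations with it ran from 0.987 to 0.994, the highest among 12249 named genes compared. Of those genes 227 exceeded 0.9, and with 6 arrays that share a scaling these figures serve only as a description.

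Markers of other cell types are given beside the members. Hepatocyte genes, 18 of 20 tested, had summed levels from 32.3 to 53.3 in vehicle rats and from 28.4 to 59.7 in treated rats. Rgn and Apoc3, the most abundant of the list, weigh most in these sums. Rgn was highest in phenolphthalein rat 1, at 5.18 beside 3.48 to 4.51. By value 14 of the 18 were higher with phenolphthalein, and 0 had an unadjusted limma p under 0.05. Of all 43473 tested probes, 20204 had a higher and 23269 a lower value. Phenolphthalein rat 2, the rat with the low mu-class values, held the highest value of 12 of the 18, beside 13.0% of all named genes. Alb, the albumin gene, read 3.16 there and -0.08 to 1.82 in the others, whereas Rgn, Apoh, Apoc3, Apob, Cyp2c11 and Fga peaked in other rats and Fga was lowest in that rat, at 0.70. Macrophage genes, 9 of 10 tested, had summed levels from 44.2 to 53.0 with vehicle and from 33.4 to 41.7 with phenolphthalein, with 8 of the 9 lower by value. The exception was Mrc1, the mannose receptor gene, with a difference of 1.1 (SE 0.23) and no overlap (limma adjusted p = 0.407). By unadjusted limma p under 0.05, 5 of the 9 macrophage genes were lower and 1 higher, beside 4.91% and 3.91% of all probes. For T and NK cell genes the sums were 2.63 to 3.60 and 1.83 to 2.47, with 7 of 7 lower by value and 4 of them at an unadjusted p under 0.05, beside 4.91% of all probes lower. In the remaining marker lists, genes named after their values were seen had an unadjusted limma p under 0.05. These were Slc12a3 (-0.39, the 1 tested distal convoluted tubule gene), Aqp2 (-0.58, 1 of 7 collecting duct), Alas2 (-0.32, 1 of 3 erythroid) and Podxl (0.29, 1 of 5 podocyte). Of the 14 proximal tubule genes, 1 was higher at that threshold, Pck1 (0.27), and 1 lower, Slc34a1 (-0.12), each without overlap. These counts stand beside 3.91% of all probes higher and 4.91% lower. The thick ascending limb, adipocyte and endothelial lists held 0 such genes. No marker passed the adjusted threshold in limma, and the part of these cell types in any GST value was not tested.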

How the data were processed

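Spot intensity values were deposited by the authors as Agilent scanner files, background-subtracted and detrended within each array by Agilent Feature Extraction 10.7.1.1, per the file headers; the submitters' processing notes name version 10.7. The deposited value table holds a ratio, equal to the processed intensity over the array's 75th percentile (SD of the log2 difference 0.000387 to 0.000402), on a linear scale with no centring of genes and column medians of 0.102 to 0.106. Every column fitted the scanner values of a different replicate number in its own group. Rat numbers within a group are therefore uncertain, whereas group membership was the same in both sources. Numbers here are those of the scanner files, and 0 columns were left out.

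Log2 intensities, scaled to the 75th percentile of 61657 probes per array, were tested with limma 3.58.1 (lmFit, eBayes with trend) in R 4.3.3, with Benjamini-Hochberg adjustment over the 43473 probes that 3 or more of the 6 arrays read well above background; outlier spots (2 to 14 per array) were set to missing. The procedure was also run on simulated data, whose outcome is not given here and is not used to read the absence of calls. Probes were named by RefSeq accession through the GRCr8 gene table (27447 with 1 symbol, 34210 with none), and the probe with the highest mean stood for a gene. All members, all other GSTs and a listed set of pathway genes were named whatever their change; genes outside it are marked. The members and lists were chosen with earlier results of these data known. Same-numbered rats did not deviate together (correlations -0.01, -0.01 and 0.04), so the numbers pair nothing. Alternatives covered background correction (normexp, offset 50, on median signals because the files hold no mean signal), normalization, filters, probe choice, slide, replicate block and leaving out each rat. Precision is limited by the number of arrays, 3 per group.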

Additional observations from a re-analysis of the deposited data

How the results depend on the processing

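Under all 18 alternatives 0 members were called higher and 0 lower at an adjusted p of 0.05. Of the 180 values of single members under these alternatives, 171 kept their sign and 9 turned it, in 5 members. Many of the kept signs are no check. Every member's difference equalled the main one with 1 probe per gene, no filter, no intensity trend or outlier spots kept. The same held with the replicate block and with detection on all 6 arrays, and the deposited value table gave almost the same differences. Gstk1 turned to 0.0106 with normexp and Gsta4 to 0.000134 with quantile normalization. With each rat left out in turn, Gstm1 ran from -1.06 to 0.43 (positive without phenolphthalein replicate 2), Gstp1 from -0.432 to 0.0896 (positive without phenolphthalein replicate 2, vehicle replicate 1 or vehicle replicate 2), Mgst1 from -0.0752 to 0.0732 (negative without phenolphthalein replicate 1 or vehicle replicate 3) and Gsta4 from -0.0927 to 0.0308 (positive without vehicle replicate 2). The others kept their sign but moved by over 1.5 times: Gsta1 ran to -0.06 and Gsta3 to -0.08, both without phenolphthalein replicate 1, Gstm2 to 0.10 without that replicate, and Gstt1 to -0.02 and Gstt2 to 0.11, both without vehicle replicate 1, with Gstt1 at -0.30 without vehicle replicate 2; Gstk1 ran from -0.10 without phenolphthalein replicate 1 to -0.0055 without phenolphthalein replicate 2. The median of the 10 members, -0.08, ran from -0.12 without vehicle replicate 3 to 0.01 without phenolphthalein replicate 2. The fit with the replicate block gave 0 and 0 calls and a median of -0.08, and the slide as a random block gave a median of -0.07. At an unadjusted p of 0.05, members appeared only under 3 alternatives: Gsta3 (-0.18) with the median of its probes, Gsta3 (-0.17) and Gstm2 (0.49) without phenolphthalein replicate 2, and Gstp1 (-0.43) and Gstt2 (0.46) without vehicle replicate 3. The share of all probes under that threshold was not counted for these fits, so no background stands beside these members. The cause of the shifts between alternatives was not tested.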
